A study of Mus musculus with 9 samples.

Results

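The genes described here drive or mark passage through the cell cycle, and they were grouped by the phase in which they act. They comprise 6 regulators of G1 and of the step into S phase (Ccnd1, Ccne1, Ccne2, E2f1, Cdc6 and Cdt1), 10 S phase genes (Mcm2 to Mcm7, Pcna, Rrm1, Rrm2 and Tyms), 2 further replication genes (Tk1 and Gins2) and 23 genes of G2 and mitosis, called mitotic genes below. The genes came from a list of 42 symbols matched to the platform annotation, and each was represented by its probe set with the highest mean over all arrays. Of the 42, 41 were measured among 18193 genes in all, and all 41 passed the filter on dim probe sets; Ccnb1 was not analysed here because no probe set carried its name alone.

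RNA came from spinal cord of mice at postnatal day 6 of the genotype GAD65-GFP, a reporter line in which GAD65-expressing (GABAergic) cells make green fluorescent protein; every group carried it. Each of 3 animals gave an intermediate, a dorsal and a ventral piece, and each piece was hybridised to 1 Affymetrix array, so that 9 arrays fell into 3 regions of 3 paired by animal. The labels mention no sorting, and the values are treated as those of whole tissue pieces. Values were read as log2 expression, a scale that no source used here states, and each fold change rests on that reading.

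Most neurons of the spinal cord have left the cell cycle by birth, while glial precursors and vascular cells of the early postnatal cord still divide. Origins of replication are licensed in G1 when Cdc6 and Cdt1 load the MCM helicase, cyclin D and cyclin E kinases release E2F factors, and E2F factors then switch on replication genes. Genes of G2 and mitosis peak later and are controlled in part through CHR and CCAAT elements in their promoters.

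Across the list these genes were highest in the ventral pieces, and intermediate and dorsal pieces differed little. Between intermediate and ventral pieces, 33 of the 41 genes were lower in the intermediate pieces and 1 was higher (limma, adjusted p under 0.05); of all 13959 genes tested, 48.2% were called in this comparison, 24.9% being lower and 23.4% higher. Between dorsal and ventral pieces 33 genes were lower in the dorsal pieces and 0 were higher, where 52.8% of all genes were called, 28.2% being lower and 24.5% higher. Between intermediate and dorsal pieces only 4 of the 41 were called, 3 higher and 1 lower, against 30.1% of all genes, 15.9% being higher and 14.2% lower. With each array centred on its median, 10 of the 41 were called in that comparison, 9 higher and 1 lower, and the calls over all genes split into 3222 higher and 1540 lower, where the values as deposited gave 2219 and 1983. The 2 comparisons with the ventral pieces share the ventral arrays.

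The median difference over the 41 genes was -0.72 on the log2 scale for intermediate minus ventral, -0.83 for dorsal minus ventral and 0.09 for intermediate minus dorsal, where the median of all genes was 0.00 in each comparison. Without a threshold, the mean intermediate minus dorsal difference was above 0 for 30 of the 41 and below 0 for 8. All genes tested split into 6791 above and 6185 below. All 3 ventral arrays stood above all 6 other arrays for 34 of the 41 genes, against 24.6% of all genes, and all 3 stood below for 0. The moderated F test over regions called 34 of the 41, against 58.0% of all genes. In bulk tissue, fewer cells of a type and less RNA per cell cannot be told apart.

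**Figure D1:**
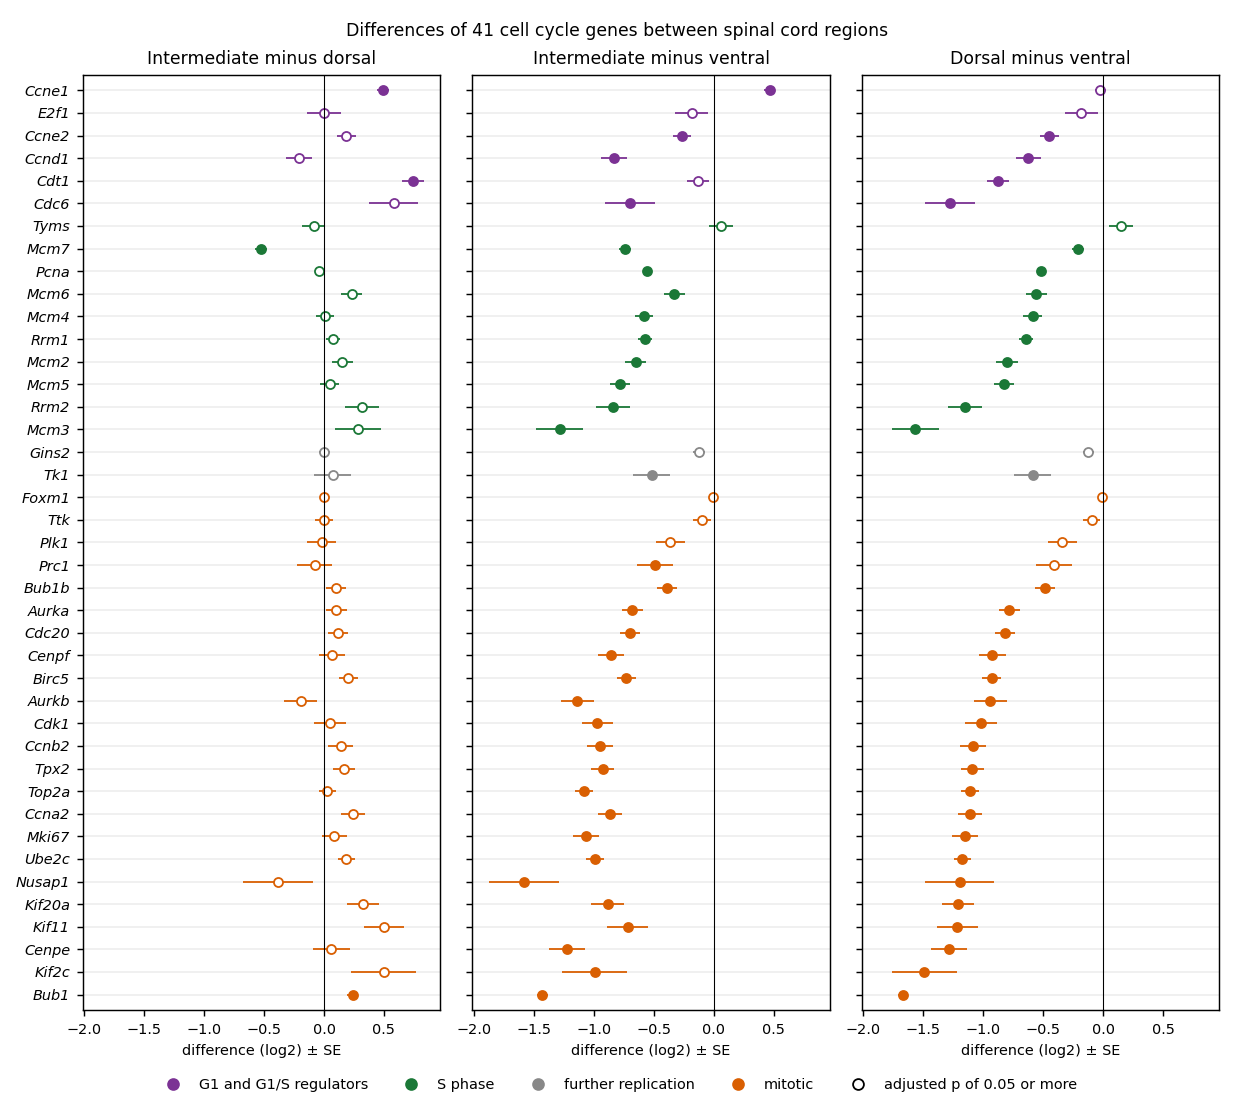
Difference of each of the 41 genes between regions (x axis, log2 ± SE of the limma model, n = 3 animals), in rows grouped by phase and ordered by dorsal minus ventral; filled points had an adjusted p under 0.05. Filled points lie left of 0 for 33 genes in each comparison with the ventral pieces, and 4 points are filled in the comparison of intermediate with dorsal pieces.

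Promoters are shown for 7 of these genes, because most genes of the list differed together between regions and the phase groups carry different known elements. Windows run from 250 bases before to 50 bases after the transcription start in the RefSeq table of build GRCm38.p6, which held 34 windows for 32 of the 41 genes. The letters searched on both strands were TTTGGCGC, TTTCCCGC, TTTCGCGC and TTTGCCGC for E2F, TTTGAA for CHR and CCAAT for the CCAAT box; capitals mark a match, and a match on the other strand appears as its reverse complement. Matches of different elements can overlap, as the E2F and CCAAT matches of Mcm7 do. The windows shown do not represent their groups. Those of G1/S and S phase genes all hold E2F letters, and those of mitotic genes all hold CHR and CCAAT letters. The windows of Mcm2, Pcna, Rrm1, Rrm2, Tyms, Ccne1 and E2f1, which are not shown, hold no E2F letters. Neither does the window at the other Mcm7 start. The windows of the licensing factor Cdt1 and of 3 helicase subunits come first, at chr8:122567765-122568064 (plus strand, Cdt1), chr8:75109259-75109558 (plus strand, Mcm5), chr1:128359656-128359955 (minus strand, Mcm6) and chr5:138171834-138172133 (minus strand, Mcm7, 1 of its starts).
Cdt1: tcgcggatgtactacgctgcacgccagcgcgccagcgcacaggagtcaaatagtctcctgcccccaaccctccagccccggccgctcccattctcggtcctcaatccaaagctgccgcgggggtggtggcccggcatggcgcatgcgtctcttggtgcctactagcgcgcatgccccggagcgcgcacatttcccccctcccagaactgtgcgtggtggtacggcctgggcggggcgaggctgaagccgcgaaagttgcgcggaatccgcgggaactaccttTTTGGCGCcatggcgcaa
Mcm5: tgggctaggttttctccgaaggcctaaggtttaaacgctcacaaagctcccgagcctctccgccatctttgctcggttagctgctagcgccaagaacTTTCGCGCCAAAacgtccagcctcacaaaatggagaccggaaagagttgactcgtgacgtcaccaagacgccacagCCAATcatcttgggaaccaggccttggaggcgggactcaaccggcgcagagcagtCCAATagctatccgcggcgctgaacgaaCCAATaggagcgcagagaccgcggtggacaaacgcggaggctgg
Mcm6: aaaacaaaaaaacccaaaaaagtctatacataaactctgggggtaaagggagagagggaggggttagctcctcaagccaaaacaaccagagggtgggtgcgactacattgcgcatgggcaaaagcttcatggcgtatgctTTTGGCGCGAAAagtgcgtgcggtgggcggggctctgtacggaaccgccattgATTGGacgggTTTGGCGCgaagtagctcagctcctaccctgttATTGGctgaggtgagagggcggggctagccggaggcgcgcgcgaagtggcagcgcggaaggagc
Mcm7: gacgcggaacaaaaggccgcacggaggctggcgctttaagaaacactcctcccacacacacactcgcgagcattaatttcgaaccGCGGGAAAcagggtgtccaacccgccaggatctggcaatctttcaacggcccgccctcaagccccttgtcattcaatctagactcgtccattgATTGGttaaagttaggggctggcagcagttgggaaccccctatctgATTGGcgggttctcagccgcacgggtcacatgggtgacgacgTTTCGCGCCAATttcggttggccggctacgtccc

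The windows of 3 mitotic genes follow for comparison, at chr9:70421505-70421804 (minus strand, Ccnb2), chr10:69352863-69353162 (minus strand, Cdk1) and chr2:164769679-164769978 (plus strand, Ube2c). Ccnb2 is a B-type cyclin, Cdk1 the mitotic kinase it activates, and Ube2c a ubiquitin-conjugating enzyme of the anaphase-promoting complex.
Ccnb2: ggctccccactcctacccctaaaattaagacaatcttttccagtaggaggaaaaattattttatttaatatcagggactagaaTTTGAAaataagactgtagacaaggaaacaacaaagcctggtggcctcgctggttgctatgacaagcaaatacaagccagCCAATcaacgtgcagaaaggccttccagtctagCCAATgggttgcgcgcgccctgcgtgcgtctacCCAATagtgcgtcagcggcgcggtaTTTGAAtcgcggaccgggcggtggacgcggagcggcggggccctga
Cdk1: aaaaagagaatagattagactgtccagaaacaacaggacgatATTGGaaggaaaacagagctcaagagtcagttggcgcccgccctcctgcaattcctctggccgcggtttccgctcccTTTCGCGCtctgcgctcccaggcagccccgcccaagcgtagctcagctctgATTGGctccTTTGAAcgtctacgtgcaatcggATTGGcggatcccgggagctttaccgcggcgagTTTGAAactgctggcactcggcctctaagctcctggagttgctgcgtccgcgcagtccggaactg
Ube2c: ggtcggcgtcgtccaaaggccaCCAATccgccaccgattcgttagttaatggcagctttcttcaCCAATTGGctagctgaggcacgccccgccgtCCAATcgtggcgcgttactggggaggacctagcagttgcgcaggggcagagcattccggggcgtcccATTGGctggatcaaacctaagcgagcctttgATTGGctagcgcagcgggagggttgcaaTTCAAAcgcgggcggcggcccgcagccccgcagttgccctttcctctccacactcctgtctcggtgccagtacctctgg

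E2F letters stood in 1 of 19 mitotic windows and in 4 of 10 S phase windows, against 2.26% of 32851 promoters in the table. CHR letters stood in 15 of the 19 mitotic windows (78.9%) and in 1 of the 10 S phase windows, against 17.9% of all promoters. CCAAT letters were frequent in both groups, in 16 mitotic and 9 S phase windows, against 37.4% of all promoters. CHR and CCAAT letters occurred together in 14 mitotic windows (73.7%) and in 1 S phase window, against 6.95% of all promoters. Of the 4 windows of G1 and G1/S regulators, 2 held E2F letters and 0 held CHR or CCAAT letters. In Ccnb2 the nearest CHR match began 5 bases past the start, after CCAAT matches at -87, -54 and -21. A match describes letters in a window and nothing about the binding of a factor.

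Among the mitotic genes, 20 of 23 were lower in intermediate than in ventral pieces, and 19 of 23 were lower in dorsal than in ventral pieces. Of all genes tested, 24.9% and 28.2% were lower in these comparisons. Mki67, the antigen that marks cycling cells, had 8.85, 8.92 and 8.85 in the intermediate pieces of animals 1 to 3, 9.03, 8.64 and 8.69 in the dorsal pieces and 9.92, 10.03 and 9.86 in the ventral pieces. The ventral arrays did not overlap with the others, whereas intermediate and dorsal arrays did. Mki67 was lower by -1.07 ± 0.11 in intermediate than in ventral pieces (limma adjusted p = 0.00134), a ventral level 2.09-fold that of the intermediate pieces, and by -1.15 ± 0.11 in dorsal than in ventral pieces (limma adjusted p = 0.000799).

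Top2a, the topoisomerase that untangles sister chromatids, behaved alike, with 8.41, 8.53 and 8.41 in intermediate, 8.60, 8.34 and 8.33 in dorsal and 9.63, 9.54 and 9.42 in ventral pieces. Its differences were -1.08 ± 0.07 for intermediate minus ventral (limma adjusted p = 0.000511) and -1.11 ± 0.07 for dorsal minus ventral (limma adjusted p = 0.000313). No ventral array of Top2a overlapped with an array of the other regions.

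Bub1, a kinase of the spindle checkpoint that delays anaphase until chromosomes attach, had 6.27, 5.91 and 6.29 in intermediate, 6.04, 5.77 and 5.93 in dorsal and 7.74, 7.37 and 7.65 in ventral pieces. Animal 2 had the lowest Bub1 value in each region, so that the within-animal differences varied less than the levels. Bub1 differed by -1.43 ± 0.05 for intermediate minus ventral (limma adjusted p = 0.000142) and by -1.67 ± 0.05 for dorsal minus ventral (limma adjusted p = 4.2e-05), the lowest dorsal minus ventral difference of the 41 genes. It was also the 1 mitotic gene higher in intermediate than in dorsal pieces, by 0.24 ± 0.05 (limma adjusted p = 0.0183), in 3 of 3 animals. Without the animal block that call was lost (limma adjusted p = 0.265), and it was lost without each of the animals in turn (limma adjusted p from 0.0566 to 0.149).

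Cenpe, the kinetochore motor that helps align chromosomes, had 6.87, 7.02 and 6.43 in intermediate, 6.59, 6.73 and 6.83 in dorsal and 7.96, 8.08 and 7.96 in ventral pieces. It was lower by -1.22 ± 0.15 in intermediate (limma adjusted p = 0.0026) and by -1.29 ± 0.15 in dorsal than in ventral pieces (limma adjusted p = 0.00182). Cenpf, a further kinetochore protein, was lower by -0.86 in intermediate and by -0.92 in dorsal than in ventral pieces.

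Nusap1, which bundles spindle microtubules, had 6.64, 6.56 and 5.67 in intermediate, 6.80, 6.36 and 6.88 in dorsal and 7.85, 7.96 and 7.82 in ventral pieces. The intermediate piece of animal 3 stood well below the other intermediate pieces, and the difference of -1.58 ± 0.29 for intermediate minus ventral (limma adjusted p = 0.00962) was the lowest of the 41 genes with a wide error. The kinesins Kif11, which separates spindle poles, Kif20a, which acts in cytokinesis, and Kif2c, which depolymerises microtubules, were lower by -0.72, -0.88 and -0.99 in intermediate and by -1.22, -1.21 and -1.49 in dorsal than in ventral pieces. Kif2c was read by a probe set with the suffix x_at, which can bind related transcripts. Its other probe sets lay next to the lowest value of the table, and the largest difference among them was -0.01 in both comparisons. Tpx2, an activator of Aurora A on the spindle, was lower by -0.93 in intermediate and by -1.09 in dorsal than in ventral pieces.

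The mitotic cyclins and the proteins that end mitosis differed in the same direction. Ccnb2 had 6.40, 6.50 and 6.39 in intermediate, 6.49, 6.07 and 6.31 in dorsal and 7.56, 7.26 and 7.31 in ventral pieces, with every ventral array above every other. Ccnb2 was lower by -0.95 ± 0.11 in intermediate (limma adjusted p = 0.00189) and by -1.09 ± 0.11 in dorsal than in ventral pieces (limma adjusted p = 0.000955). Ccna2, the A-type cyclin of S phase and G2, and Cdk1 were lower by -0.87 and -0.97 in intermediate and by -1.11 and -1.02 in dorsal than in ventral pieces.

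Ube2c was lower by -0.99 ± 0.07 in intermediate (limma adjusted p = 0.000588) and by -1.17 ± 0.07 in dorsal than in ventral pieces (limma adjusted p = 0.000252). Cdc20, the activator of the anaphase-promoting complex, was lower by -0.70 in intermediate and by -0.82 in dorsal than in ventral pieces. The Aurora kinases Aurka, of the spindle poles, and Aurkb, of the chromosomal passenger complex, were lower by -0.68 and -1.14 in intermediate and by -0.78 and -0.94 in dorsal than in ventral pieces. Birc5, or survivin, a partner of Aurkb in that complex, was lower by -0.73 in intermediate and by -0.93 in dorsal than in ventral pieces. Bub1b, of the spindle checkpoint, was lower by -0.39 in intermediate and by -0.49 in dorsal than in ventral pieces. It carried the same value of 5.35 on all intermediate arrays and in the dorsal pieces of animals 1 and 3, which makes its spread look small.

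The mitotic genes that missed the threshold in either comparison were mostly dim. Plk1, Ttk and Foxm1 did not pass in either comparison. Foxm1, a transcription factor of G2 genes, lay between 2.17 and 2.18 on all 9 arrays, next to the lowest value of the table, 2.146, called the floor. Plk1, a mitotic kinase, had 2.82, 2.80 and 2.79 in intermediate, 2.82 in all 3 dorsal and 3.43, 2.88 and 3.18 in ventral pieces, so that all ventral arrays were the highest, yet the adjusted p was 0.0625 for intermediate minus ventral and 0.0679 for dorsal minus ventral (limma). Ttk, a spindle checkpoint kinase, stood at 4.25 on 8 arrays on its brightest probe set. On its other probe set Ttk differed by -0.91 for intermediate minus ventral and by -1.77 for dorsal minus ventral, with an intermediate minus dorsal difference of 0.86. Prc1, which bundles microtubules of the spindle midzone, was lower by -0.49 in intermediate than in ventral pieces (limma adjusted p = 0.0485) and had a dorsal minus ventral difference of -0.41 (limma adjusted p = 0.0743).

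**Figure D2:**
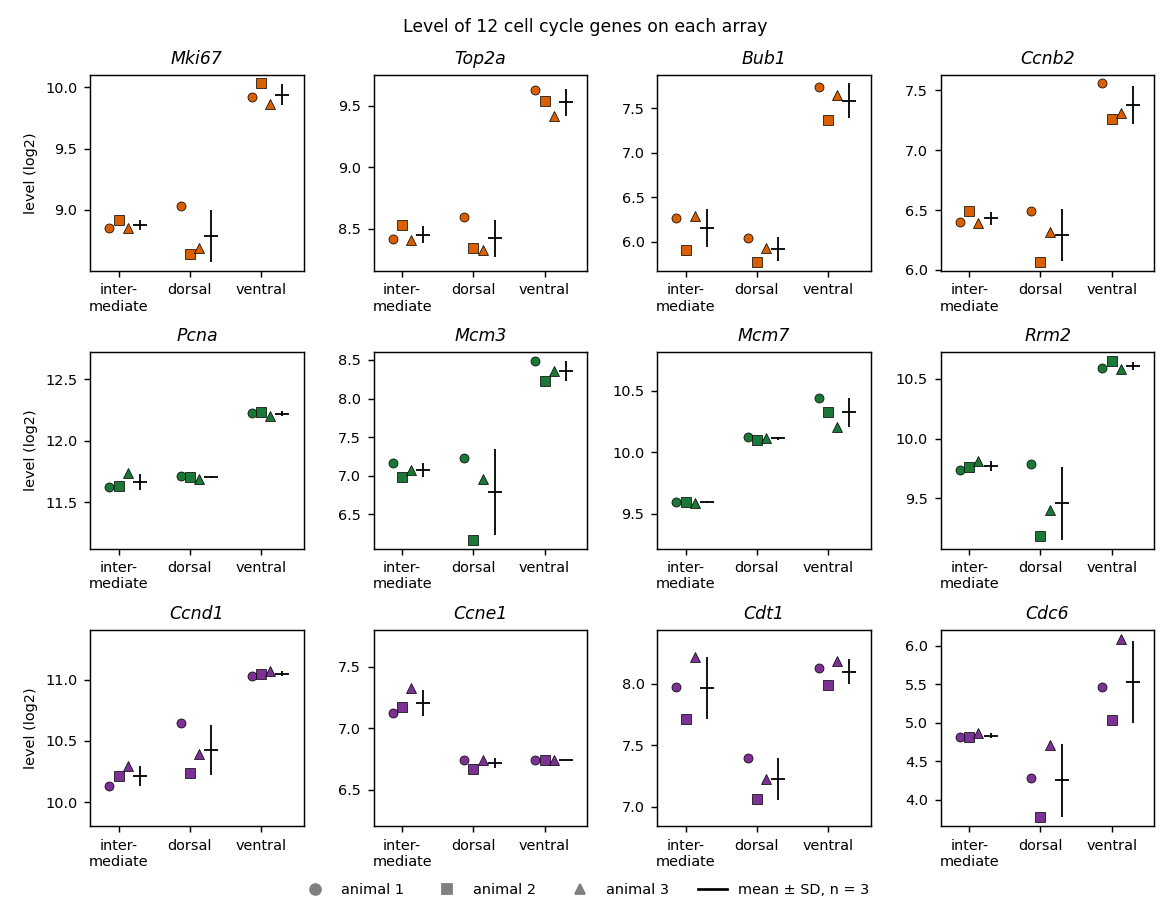
Level of 12 genes on each array (y axis, log2; x axis, region), with 1 symbol per animal and bars for the mean ± SD (n = 3); mitotic genes are on top, S phase genes in the middle and G1 and G1/S regulators at the bottom. The ventral arrays lie above all others for 10 of the 12, whereas Ccne1 is highest in the intermediate pieces and Cdt1 is lowest in the dorsal pieces.

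Among the S phase genes, 9 of 10 were lower in intermediate and 9 of 10 were lower in dorsal than in ventral pieces, against 24.9% and 28.2% of all genes tested. The exception was Tyms. Pcna, the sliding clamp of DNA polymerases, had 11.63, 11.63 and 11.74 in intermediate, 11.71, 11.71 and 11.69 in dorsal and 12.22, 12.24 and 12.20 in ventral pieces. Replicates lay close together, and the ventral arrays stood clear of both other regions. Pcna was lower by -0.55 ± 0.04 in intermediate (limma adjusted p = 0.000418) and by -0.52 ± 0.04 in dorsal than in ventral pieces (limma adjusted p = 0.000323).

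Mcm3, a subunit of the replicative helicase, had the lowest differences of the S phase group, with 7.16, 6.98 and 7.07 in intermediate, 7.23, 6.17 and 6.96 in dorsal and 8.48, 8.22 and 8.36 in ventral pieces. It was lower by -1.28 ± 0.19 in intermediate (limma adjusted p = 0.00496) and by -1.57 ± 0.19 in dorsal than in ventral pieces (limma adjusted p = 0.00215). The dorsal piece of animal 2 was far below the other dorsal pieces. A dimmer Mcm3 probe set gave -0.84 for intermediate minus ventral, and 3 probe sets near the floor gave 0.01, -0.03 and 0.00. The brightest carries the suffix s_at and the dimmer one x_at, so both can bind related transcripts. Its brightest probe set without either suffix, near the floor, gave -0.03 for intermediate minus ventral and -0.09 for dorsal minus ventral. Mcm2 to Mcm7 were all read by probe sets with such a suffix.

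The other helicase subunits except Mcm7 differed between intermediate and ventral pieces by -0.65 for Mcm2, -0.58 for Mcm4, -0.78 for Mcm5 and -0.33 for Mcm6. Between dorsal and ventral pieces their differences were -0.80 for Mcm2, -0.59 for Mcm4, -0.83 for Mcm5 and -0.56 for Mcm6. All 8 of these differences passed the test, although the intermediate minus ventral call of Mcm6 (limma adjusted p = 0.0321) was lost without the animal block (limma adjusted p = 0.0619).

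Mcm7 was the 1 gene of the list called lower in intermediate than in dorsal pieces. It had 9.60, 9.60 and 9.58 in intermediate, 10.13, 10.10 and 10.12 in dorsal and 10.44, 10.33 and 10.21 in ventral pieces. The regions did not overlap, and the order was intermediate, dorsal, ventral in every animal. Mcm7 was lower by -0.52 ± 0.05 in intermediate than in dorsal pieces (limma adjusted p = 0.00261), by -0.74 ± 0.05 in intermediate than in ventral pieces (limma adjusted p = 0.00049) and by -0.21 ± 0.05 in dorsal than in ventral pieces (limma adjusted p = 0.0197). All 4 Mcm7 probe sets had their lowest mean in the intermediate pieces, with intermediate minus dorsal differences of -0.52, -0.49, -0.18 and -0.55. The call against the dorsal pieces was lost without animal 2 (limma adjusted p = 0.0542).

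Rrm1 and Rrm2 encode the subunits of ribonucleotide reductase, which makes deoxynucleotides. Rrm2 had 9.74, 9.77 and 9.82 in intermediate, 9.79, 9.19 and 9.40 in dorsal and 10.60, 10.65 and 10.58 in ventral pieces, again with the ventral arrays apart. Rrm2 was lower by -0.84 ± 0.14 in intermediate (limma adjusted p = 0.00753) and by -1.15 ± 0.14 in dorsal than in ventral pieces (limma adjusted p = 0.00217). Rrm1 was lower by -0.57 in intermediate and by -0.64 in dorsal than in ventral pieces. Tyms, thymidylate synthase, was dim, with 3.42 on 7 of the 9 arrays, and differed by 0.06 for intermediate minus ventral (limma adjusted p = 0.679) and 0.15 for dorsal minus ventral (limma adjusted p = 0.274).

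Of the further replication genes, Tk1, which salvages thymidine, had 2.49, 2.46 and 2.64 in intermediate, 2.46 in all 3 dorsal and 3.42, 2.75 and 2.97 in ventral pieces. It was lower by -0.51 ± 0.15 in intermediate (limma adjusted p = 0.0474) and by -0.59 ± 0.15 in dorsal than in ventral pieces (limma adjusted p = 0.0288), close to the threshold at a low level. Gins2, of the complex that joins the helicase, did not pass on its brightest probe set, with -0.12 for intermediate minus ventral and -0.12 for dorsal minus ventral (limma adjusted p = 0.0977 and 0.0883). Its other probe set gave -1.27 and -1.32 for the same comparisons.

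The G1 and G1/S regulators did not share a pattern. For intermediate minus ventral 3 of 6 were lower and 1 higher, for dorsal minus ventral 4 of 6 were lower, and for intermediate minus dorsal 2 of 6 were higher. Of all genes tested, 48.2%, 52.8% and 30.1% were called in these comparisons in either direction. Counts over 6 genes are therefore not read as a result about this group. Ccnd1, the D-type cyclin of G1, had 10.14, 10.22 and 10.30 in intermediate, 10.65, 10.24 and 10.40 in dorsal and 11.03, 11.04 and 11.07 in ventral pieces. It followed the majority and was lower by -0.83 ± 0.11 in intermediate (limma adjusted p = 0.00294) and by -0.62 ± 0.11 in dorsal than in ventral pieces (limma adjusted p = 0.0068).

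Ccne1, an E-type cyclin that drives entry into S phase, was the 1 gene of the list highest in the intermediate pieces. It had 7.13, 7.17 and 7.33 in intermediate, 6.74, 6.67 and 6.74 in dorsal and 6.74 in all 3 ventral pieces. The intermediate arrays stood above all others, while 5 of the 6 remaining arrays carried the same value of 6.74, which makes their spread look small. Ccne1 was higher by 0.49 ± 0.05 in intermediate than in dorsal pieces (limma adjusted p = 0.00265) and by 0.47 ± 0.05 in intermediate than in ventral pieces (limma adjusted p = 0.00139). Its other probe set gave 0.57 and 0.58 for these comparisons. The call against the dorsal pieces was lost without animal 2 (limma adjusted p = 0.053), and dorsal minus ventral was -0.02 (limma adjusted p = 0.757).

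Ccne2, the related E-type cyclin, differed in the opposite direction from Ccne1 against the ventral pieces, by -0.26 ± 0.08 for intermediate minus ventral (limma adjusted p = 0.0453) and by -0.45 ± 0.08 for dorsal minus ventral (limma adjusted p = 0.00712). The intermediate minus ventral call was lost without the animal block (limma adjusted p = 0.0965). Ccne2 had 8.39, 8.33 and 8.23 in intermediate, 8.33, 7.91 and 8.15 in dorsal and 8.70, 8.49 and 8.55 in ventral pieces.

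The licensing factors Cdt1 and Cdc6 were both lowest in the dorsal pieces. Cdt1 had 7.98, 7.71 and 8.22 in intermediate, 7.40, 7.06 and 7.22 in dorsal and 8.13, 7.99 and 8.18 in ventral pieces. Intermediate and ventral arrays overlapped, and both stood above every dorsal array. Cdt1 was higher by 0.74 ± 0.09 in intermediate than in dorsal pieces (limma adjusted p = 0.00529), had -0.13 ± 0.09 for intermediate minus ventral (limma adjusted p = 0.31) and was lower by -0.88 ± 0.09 in dorsal than in ventral pieces (limma adjusted p = 0.00121). A dimmer Cdt1 probe set gave 0.08 for intermediate minus dorsal and -0.31 for dorsal minus ventral. The intermediate minus dorsal call of Cdt1 was lost without animal 1 (limma adjusted p = 0.0562) and without animal 2 (limma adjusted p = 0.0598).

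Cdc6 had 4.81, 4.81 and 4.87 in intermediate, 4.28, 3.77 and 4.71 in dorsal and 5.47, 5.03 and 6.09 in ventral pieces. It was lower by -1.27 ± 0.21 in dorsal than in ventral pieces (limma adjusted p = 0.00559) and by -0.69 ± 0.21 in intermediate than in ventral pieces (limma adjusted p = 0.046), the last call being lost without the animal block (limma adjusted p = 0.117). Its intermediate minus dorsal difference of 0.58 ± 0.21 did not pass (limma adjusted p = 0.105), although it was positive in 3 of 3 animals. E2f1 stood at 2.67 on 8 arrays and at 3.22 on the ventral array of animal 3, and it did not pass in any comparison.

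**Figure D3:**
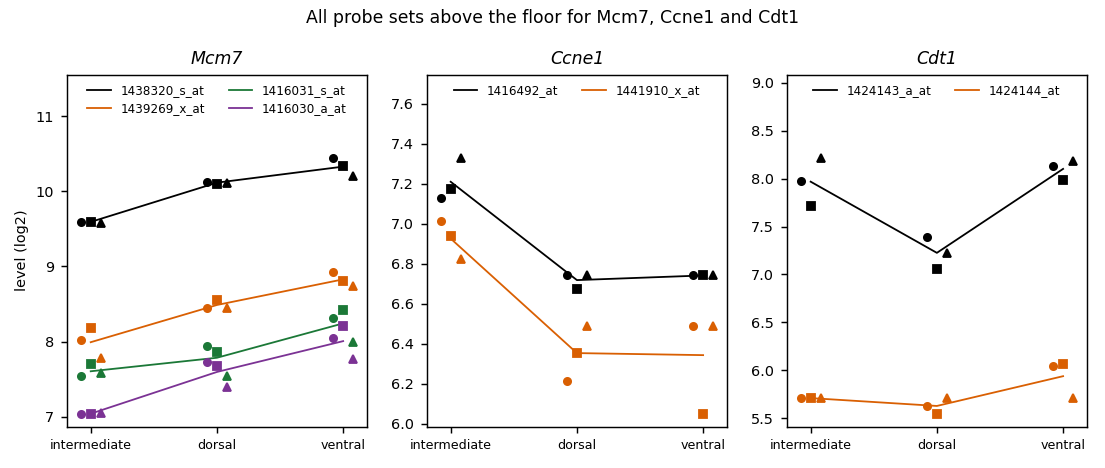
Level of every probe set above the floor for Mcm7, Ccne1 and Cdt1 (y axis, log2; x axis, region), with a line through the region means and circles, squares and triangles for animals 1, 2 and 3. The 4 Mcm7 probe sets are lowest and both Ccne1 probe sets highest in the intermediate pieces; the bright Cdt1 probe set is lowest in the dorsal pieces, and the dimmer one differs by 0.08 between intermediate and dorsal pieces. Levels of different probe sets are not comparable.

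Differences were set side by side for the mitotic and S phase groups within each animal. For intermediate minus ventral, the median of the 23 mitotic genes was -1.004, -0.81 and -0.79 in animals 1 to 3, and that of the 10 S phase genes was -0.69, -0.60 and -0.60. For dorsal minus ventral, the mitotic medians were -0.90, -1.11 and -0.99 and the S phase medians -0.55, -0.74 and -0.62. The mitotic median was further below 0 in every animal and in both comparisons with the ventral pieces.

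The mitotic minus S phase gap averaged -0.24 ± 0.066 for intermediate minus ventral and -0.37 ± 0.0083 for dorsal minus ventral (SD, n = 3 animals). It was 0.06, 0.01 and 0.06 in the 3 animals for intermediate minus dorsal. Restricting both groups to genes with a mean of at least 6, a split added after the data were seen, left 17 mitotic and 9 S phase genes and a gap of -0.29 for intermediate minus ventral and -0.44 for dorsal minus ventral. The S phase genes were the brighter group, with array medians of 9.09 to 10.29 against 6.47 to 8.08 for the mitotic genes. After the split these were still 9.19 to 10.44 against 7.28 to 8.40. The part of signal level in the gap was not tested. When each gene was read by its most variable probe set, the mitotic and S phase medians were -0.91 and -0.63 for intermediate minus ventral and -1.09 and -0.61 for dorsal minus ventral. Probe sets without the suffix x_at or s_at gave -0.86 and -0.56, and -1.05 and -0.55. Only the mean of all probe sets of a gene, of these 3 other choices, gave nearly equal intermediate minus ventral medians, -0.55 and -0.52, and for dorsal minus ventral it gave -0.61 and -0.52. No p is given for these medians, because they run over genes chosen with results of these data known.

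**Figure D4:**
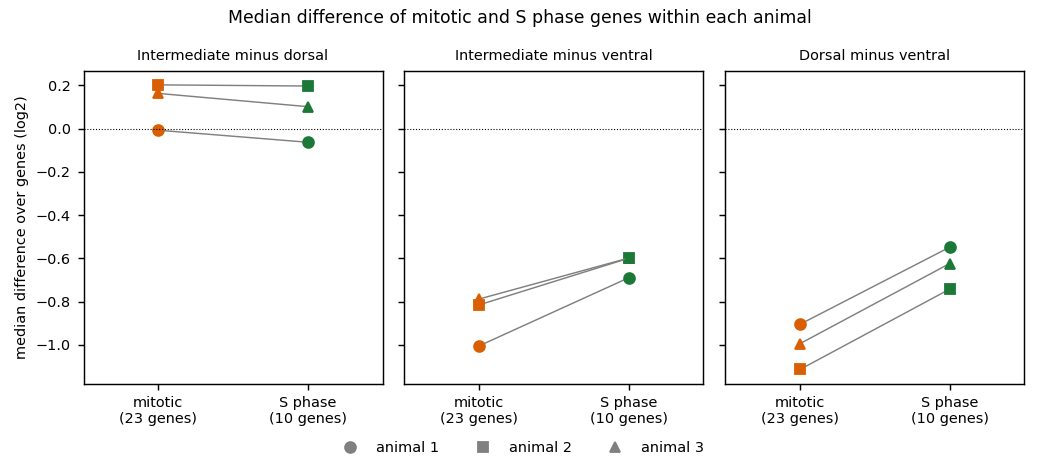
Median difference over 23 mitotic and 10 S phase genes within each animal (y axis, log2; 1 symbol and line per animal). In both comparisons with the ventral pieces the mitotic median lies below the S phase median for every animal, with mitotic medians of -1.11 to -0.79 and S phase medians of -0.74 to -0.55.

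The dorsal pieces of the 3 animals differed in level over these genes. The dorsal piece of animal 1 had the highest of the 3 dorsal values for 29 of the 41 genes, that of animal 2 had the lowest for 24, and animal 2 had the highest for 0. The same count was not made over all genes. A difference of these genes and a shift of a whole dorsal array therefore cannot be told apart by it. The median intermediate minus dorsal difference of the mitotic genes was -0.01 in animal 1, 0.20 in animal 2 and 0.16 in animal 3, and that of the S phase genes was -0.06, 0.20 and 0.10. Counted over animals without a threshold, 34 of 41 genes were lower in all 3 animals for intermediate minus ventral and 36 for dorsal minus ventral, whereas 7 were higher and 2 lower in all 3 animals for intermediate minus dorsal. Over all 13959 genes tested, counted in the same way, 33.2% were lower for intermediate minus ventral and 35.8% for dorsal minus ventral, and 26.2% were higher and 24.2% lower for intermediate minus dorsal.

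The calls rest on 3 animals, and some were lost when 1 was left out. Of the 34 calls for intermediate minus ventral, 17 held without each animal in turn: Ccne1, Mcm5, Mcm7, Pcna, Rrm1, Mki67, Top2a, Bub1, Ccnb2, Ccna2, Cdk1, Cdc20, Birc5, Cenpe, Cenpf, Tpx2 and Ube2c. Without animal 1, Ccne2, Cdc6, Mcm3, Tk1, Bub1b, Aurka, Kif2c, Nusap1 and Prc1 were lost (limma adjusted p from 0.0513 to 0.239). Without animal 2, Mcm6, Tk1, Kif11, Kif20a, Nusap1 and Prc1 were lost (from 0.0539 to 0.207). Without animal 3, the lost calls were those of Ccnd1, Ccne2, Cdc6, Mcm2, Mcm3, Mcm4, Mcm6, Rrm2, Tk1, Bub1b, Aurka, Aurkb, Kif11, Kif20a, Kif2c and Prc1 (from 0.0511 to 0.254).

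Of the 33 calls for dorsal minus ventral, 20 held without each animal in turn. Without animal 1, Ccne2, Cdc6, Mcm7, Bub1b and Nusap1 were lost (limma adjusted p from 0.0571 to 0.13), and without animal 2, Ccnd1, Mcm7, Tk1 and Nusap1 were lost (from 0.0752 to 0.168). Without animal 3, Ccnd1, Ccne2, Mcm4, Mcm6, Rrm2, Tk1, Bub1b, Aurkb, Kif11 and Kif2c were lost (from 0.0536 to 0.156). Of the 4 calls for intermediate minus dorsal, 0 held without each animal, and all 4 were lost without animal 2. In these repeats 6 arrays remained.

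Other probe sets of the same genes mostly ran the same way. Among genes called for intermediate minus ventral, 30 of 32 other probe sets above the floor, of 22 genes, had the same direction as the brightest one. For dorsal minus ventral 29 of 31 did, of 21 genes, and the exceptions were Mcm3 probe sets near the floor. A probe set counted as above the floor if any array exceeded it by more than 0.01. The counts thus include differences such as -0.01 for Kif2c and -0.0018 for Tpx2 in intermediate minus ventral. The same count was not made over all genes.

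Against the ventral pieces, markers of several cell types differed in the same direction as most of these genes. Between intermediate and dorsal pieces, 4 of the 41 genes were called, whereas most oligodendrocyte precursor and astrocyte markers were. Of all genes tested, 48.2% were called for intermediate minus ventral, 52.8% for dorsal minus ventral and 30.1% for intermediate minus dorsal. Of 7 oligodendrocyte precursor markers, 7 were lower in intermediate and 7 lower in dorsal than in ventral pieces, and 6 stood higher in intermediate than dorsal pieces. Their mean level ran from 10.9 to 11.0 on intermediate, from 10.5 to 10.6 on dorsal and from 11.57 to 11.62 on ventral arrays. Of 7 astrocyte markers, 6 were lower in intermediate and 7 lower in dorsal than in ventral pieces, and for intermediate minus dorsal 4 were higher and 1 was lower, with mean levels of 12.8 to 12.97 on intermediate, 12.8 to 12.9 on dorsal and 13.59 to 13.64 on ventral arrays.

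Endothelial and mural markers, 8 in all, were lower in intermediate for 7 and lower in dorsal for 7 than in ventral pieces, and 2 were higher for intermediate minus dorsal, with mean levels of 8.11 to 8.19 on intermediate, 7.83 to 8.09 on dorsal and 8.75 to 8.85 on ventral arrays. The 2 higher were 25% of the list, below the 30.1% of all genes tested, so that count is not a result about these markers. Of 5 markers of myelinating oligodendrocytes, which no longer divide, 4 were lower in intermediate and 4 lower in dorsal than in ventral pieces and 0 were called for intermediate minus dorsal, with mean levels of 12.3 to 12.9, 12.1 to 12.6 and 14.2 to 14.3 on intermediate, dorsal and ventral arrays. The part of these cell types in the cell cycle differences was not tested.

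Markers of other dividing or attached tissue had another pattern. Beside their counts, the shares of all genes called were 48.2% for intermediate minus ventral, 52.8% for dorsal minus ventral and 30.1% for intermediate minus dorsal. All 9 microglia markers were lower in intermediate than in dorsal and than in ventral pieces, while 1 of 9 was lower in dorsal than in ventral pieces; mean levels were 7.93 to 8.11 on intermediate, 8.53 to 8.82 on dorsal and 8.77 to 8.88 on ventral arrays. Of 9 meningeal and fibroblast markers, 9 were lower in intermediate and 1 lower in dorsal than in ventral pieces and 8 were lower in intermediate than in dorsal pieces, with mean levels of 6.54 to 6.93 on intermediate, 8.75 to 9.96 on dorsal and 9.55 to 9.97 on ventral arrays. The 2 measured Schwann cell markers were lower in intermediate than in both other regions, at 5.29 to 6.15 on intermediate, 9.74 to 12.1 on dorsal and 11.0 to 11.7 on ventral arrays. Of 5 ependymal markers, 5 stood higher in intermediate than dorsal pieces, 1 was higher in intermediate than in ventral pieces and 5 were lower in dorsal than in ventral pieces, with mean levels of 6.19 to 6.57 on intermediate, 3.86 to 4.32 on dorsal and 6.01 to 6.11 on ventral arrays.

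**Figure D5:**
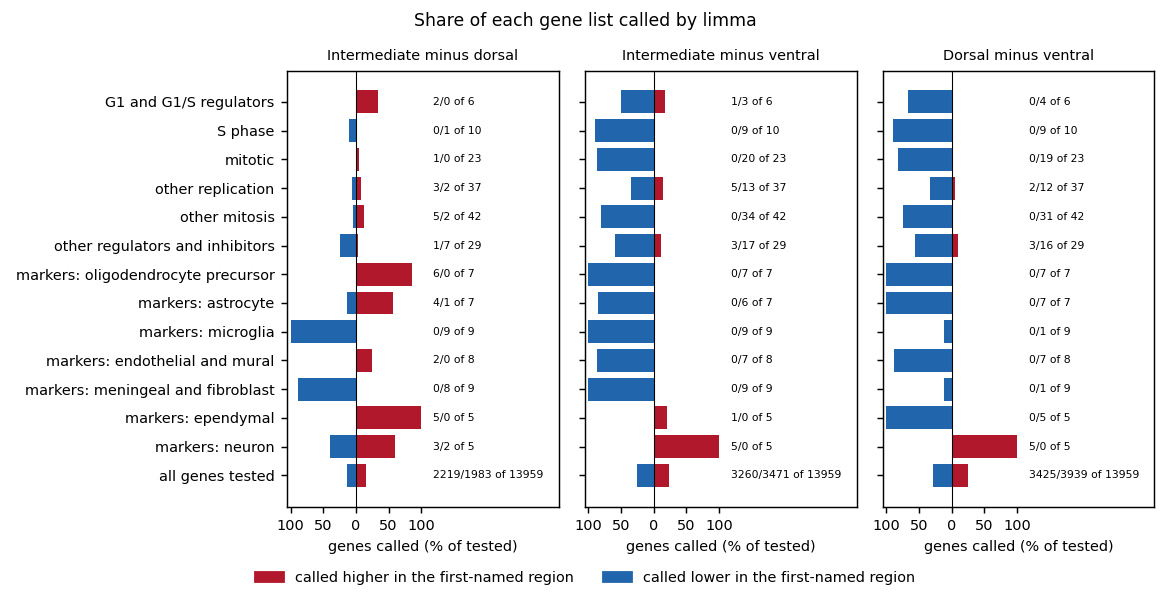
Share of each list called by limma (x axis, % of genes tested) higher, in red to the right, or lower, in blue to the left, in the first-named region; numbers at the right are higher/lower of tested. The S phase, mitotic, oligodendrocyte precursor, astrocyte and endothelial lists lie almost wholly to the left in both comparisons with the ventral pieces, whereas microglia and meningeal markers do so mainly for intermediate minus ventral.

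The region labels were set against neuronal markers, where the same shares of all genes apply (48.2% for intermediate minus ventral, 52.8% for dorsal minus ventral and 30.1% for intermediate minus dorsal). Of 5 dorsal horn markers, 5 were higher in dorsal and 3 in intermediate than in ventral pieces, and 5 were lower for intermediate minus dorsal, with mean levels of 3.99 to 5.03 on intermediate, 7.83 to 8.27 on dorsal and 2.95 on ventral arrays. All 5 general neuron markers were higher in intermediate and higher in dorsal than in ventral pieces, and for intermediate minus dorsal 3 were higher and 2 lower, at 12.67 to 12.74 on intermediate, 12.5 to 12.7 on dorsal and 11.3 to 11.4 on ventral arrays. Of 5 motor neuron markers, Chat, Slc18a3 and Slc5a7 stood at the floor on all 9 arrays, ventral ones included; 1 of the 2 tested was higher for intermediate minus dorsal and 1 lower for dorsal minus ventral, and the mean level of the list was 3.05 to 3.21 on intermediate, 2.15 to 2.27 on dorsal and 3.05 to 3.33 on ventral arrays. Of 4 erythroid markers, 2 were measured, at 2.15 to 2.16 on all arrays, and 0 were called.

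Genes of the same processes outside the list were counted as well. Of 42 other mitosis genes tested, 34 were lower in intermediate and 31 lower in dorsal than in ventral pieces, and 0 were higher in either comparison. These counts were 81.0% and 73.8% of the 42, where 24.9% and 28.2% of all genes tested were lower and 48.2% and 52.8% were called in either direction. Anln, or anillin, of the cytokinetic ring, had 7.22, 7.29 and 7.55 in intermediate, 7.62, 7.15 and 7.43 in dorsal and 9.96, 9.91 and 10.14 in ventral pieces. Anln was lower by -2.65 ± 0.12 in intermediate (limma adjusted p = 0.000232) and by -2.61 ± 0.12 in dorsal than in ventral pieces (limma adjusted p = 0.00012), with no overlap of the ventral arrays with the others.

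The centromeric histone Cenpa was lower by -1.48 in intermediate and by -1.58 in dorsal than in ventral pieces, and the abscission protein Cep55 by -1.36 and -1.40. Hmmr, a spindle protein, was lower by -1.33 and -1.61 in these comparisons. Kif23, a midzone kinesin, was lower by -1.31 in intermediate, and Aspm, a spindle pole protein, by -1.34 in dorsal than in ventral pieces. For intermediate minus dorsal 5 of the 42 were higher and 2 lower, which is 16.7% against 30.1% of all genes tested, among them Pttg1, or securin, at 0.82, Spc25 at 0.43 and Nuf2 at 0.32, both of the NDC80 kinetochore complex, Cks1b, a Cdk-binding protein, at -0.56 and Racgap1, of the midzone, at -0.50.

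Of 37 other replication genes tested, 13 were lower and 5 higher in intermediate than in ventral pieces, and 12 were lower and 2 higher in dorsal than in ventral pieces. The 18 calls for intermediate minus ventral were 48.6% of the list, near the 48.2% of all genes tested, and the 14 for dorsal minus ventral were 37.8%, below the 52.8% of all genes, so the counts are not a result about this list. Uhrf1, which guides maintenance methylation, was lower by -0.93 in intermediate and by -0.91 in dorsal than in ventral pieces, the clamp loader subunit Rfc4 by -0.85 and -0.78, and Dbf4, the activator of Cdc7, by -0.93 and -0.86. The polymerase subunits Pola1 and Pole2 were lower by -0.87 and -0.68 in intermediate, and Rpa3, of the single-strand binding complex, by -0.77 in dorsal than in ventral pieces. Cdc7, the kinase that fires origins, went the other way, with 10.11, 10.05 and 9.80 in intermediate, 10.45, 10.72 and 10.52 in dorsal and 9.30, 9.40 and 9.26 in ventral pieces. It was higher by 0.66 ± 0.08 in intermediate (limma adjusted p = 0.00244) and by 1.24 ± 0.08 in dorsal than in ventral pieces (limma adjusted p = 0.000283).

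For intermediate minus dorsal 3 of the 37 were higher, the DNA ligase Lig1 by 0.61, the Cdt1 inhibitor Gmnn by 0.36 and the histone mRNA binding protein Slbp by 0.23, and 2 were lower, Cdc7 by -0.58 and Rpa2 by -0.26. These 5 were 13.5% of the list, below the 30.1% of all genes tested. Gmnn had 8.08, 7.94 and 8.15 in intermediate, 7.70, 7.78 and 7.61 in dorsal and 8.32, 8.05 and 8.32 in ventral pieces, so that its dorsal arrays were the lowest, as they were for Cdt1.

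Of 29 other regulators and inhibitors tested, 17 were lower and 3 higher in intermediate than in ventral pieces, 16 were lower and 3 higher in dorsal than in ventral pieces, and for intermediate minus dorsal 1 was higher and 7 were lower. The shares called were 69.0% for intermediate minus ventral and 65.5% for dorsal minus ventral, against 48.2% and 52.8% of all genes tested, and the 8 calls for intermediate minus dorsal were 27.6%, near the 30.1% of all genes tested. Cdkn1a, the Cdk inhibitor p21, had 8.72, 8.82 and 8.68 in intermediate, 9.56, 9.56 and 9.08 in dorsal and 7.64, 7.76 and 7.72 in ventral pieces. The ventral arrays were the lowest and the regions did not overlap. Cdkn1a was higher by 1.03 ± 0.12 in intermediate (limma adjusted p = 0.00198) and by 1.69 ± 0.12 in dorsal than in ventral pieces (limma adjusted p = 0.000336), and its intermediate minus dorsal difference was -0.66 ± 0.12 (limma adjusted p = 0.0149).

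Cdkn1c, the related inhibitor p57, had the opposite direction against the ventral pieces, with 8.93, 8.96 and 8.87 in intermediate, 9.58, 9.05 and 9.33 in dorsal and 10.24, 10.46 and 10.38 in ventral pieces. Cdkn1c was lower by -1.44 ± 0.15 in intermediate (limma adjusted p = 0.00143) and by -1.04 ± 0.15 in dorsal than in ventral pieces (limma adjusted p = 0.00346). Ccnd2, a D-type cyclin, its partner Cdk4 and the repressor E2f8 were lower by -0.97, -0.81 and -0.87 in intermediate than in ventral pieces. In dorsal minus ventral, Wee1, the kinase that restrains Cdk1, was lower by -1.10, E2f8 by -0.94 and the repressor E2f6 by -0.83. In intermediate minus dorsal, Wee1 was higher by 0.73, whereas E2f7, a repressor, was lower by -0.74, the antiproliferative gene Btg1 by -0.71 and the Cdk inhibitor Cdkn1b by -0.64.

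Of the 15 calls named for each comparison in these further genes, 10 held without each animal for intermediate minus ventral, 11 for dorsal minus ventral and 3 for intermediate minus dorsal (Pttg1, Cks1b and Wee1). For intermediate minus ventral, Pole2 and Hmmr were lost without animal 1, Dbf4, Pole2 and Kif23 without animal 2, and Dbf4, Pola1, Hmmr and Kif23 without animal 3 (limma adjusted p from 0.0604 to 0.154). For dorsal minus ventral, Hmmr was lost without animal 1 (0.0513), Dbf4 without animal 2 (0.217), and Dbf4, Hmmr, Cdkn1c and E2f6 without animal 3 (from 0.0589 to 0.213). For intermediate minus dorsal, Lig1, Gmnn, Slbp, E2f7 and Cdkn1a were among the 10 calls lost without animal 1, and Cdc7, Racgap1 and Cdkn1a among the 8 lost without animal 2. Cdc7, Gmnn, Slbp, Racgap1 and E2f7 were among the 10 lost without animal 3, while Rpa2, Spc25, Nuf2, Btg1 and Cdkn1b were lost in every one of these repeats (from 0.0527 to 0.262). Without the animal block, Nuf2 was lost for intermediate minus dorsal (0.111) and Pole2 for intermediate minus ventral (0.0582). The intermediate minus ventral call of Cdc7, given outside the 15, held without each animal, with limma adjusted p of 0.0108, 0.0440 and 0.0366 without animals 1, 2 and 3, and without the block (0.00142).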

How the data were processed

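RNA of 3 spinal cord regions from 3 mice was measured on 9 Affymetrix arrays; per the labels, 500 ng of total RNA was labelled with a 3' in vitro transcription kit. The deposited values, 2.146 to 16.27, were read as log2; their summarisation, normalisation and floor by the authors are not given in the sources used. Between 36.0% and 36.3% of probe sets per array lay within 0.01 of the floor, array medians ran from 3.66 to 3.75, and 0 array pairs were identical. Of 45037 probe sets, 34945 had 1 symbol in the platform annotation, 932 several and 9160 no entry. The brightest single-symbol probe set stood for each gene, and 4234 genes with means under the 30th percentile of probe set means (2.14606) were left out. Of the 41 genes, 24 had 9 distinct values, 8 had 3 identical values within some region, 11 were read by a probe set with the suffix x_at or s_at, which can bind related transcripts, and 0 had an array at the floor.

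Region and animal were fitted to all 9 arrays with limma 3.58.1 (R 4.3.3, with data.table version 1.17.8; tables and figures with Python 3.11.15, pandas 2.3.3 and matplotlib 3.10.9). Benjamini-Hochberg adjustment of two-sided p-values ran over 13959 genes, with calls under 0.05, and the model was tested on simulated data. Residual degrees of freedom were 4, prior degrees of freedom 0.749, and the number of arrays limits the precision. A ± gives the model's standard error, except where SD is written. The pairing comes from the titles, where the animal of each array is given; deviations of same-animal arrays correlated at -0.066 to 0.246 across genes (mean 0.081, 9 pairs), those of different animals at -0.18 to 0.161 (mean -0.041, 18 pairs).

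The 41 genes and all lists were chosen with earlier results of these data known. All 41 are named; of the further replication, mitosis and regulator genes, the 5 called genes with the largest absolute difference per list and comparison are named, and Gmnn's values and the intermediate minus ventral difference of Cdc7 were added after they were seen. Alternatives covered the block, filter, centring, quantile normalisation, probe set choice, eBayes settings, tied values, arrays in the fit and each animal left out; 2 were added after the data were seen.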

Additional observations from a re-analysis of the deposited data

How the results depend on the processing

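The calls rest on 3 animals, on a log2 scale read from the values and on brightest probe sets. No difference of the 41 genes that was called reversed in any alternative run. Leaving out 1 animal, which leaves 6 arrays, gave 0 to 4 calls among the 41 genes for intermediate minus dorsal (all 3 animals: 4), 19 to 29 for intermediate minus ventral (34), 24 to 30 for dorsal minus ventral (33) and 18 to 29 over any region (34). Over all genes the ranges were 1464 to 2454 (4202), 4200 to 5197 (6731), 5234 to 5876 (7364) and 5046 to 6183 (8101). The S phase medians ran from 0.00 to 0.15, -0.67 to -0.60 and -0.66 to -0.58, and the mitotic medians from 0.00 to 0.22, -0.95 to -0.79 and -1.10 to -1.01, for intermediate minus dorsal, intermediate minus ventral and dorsal minus ventral.

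Without the animal as a block, that is without pairing, 3 of the 41 genes were called for intermediate minus dorsal, 32 for intermediate minus ventral, 33 for dorsal minus ventral and 34 over any region. For intermediate minus dorsal, centring each array on its median gave 10 calls among the 41, and a fit of only the arrays compared gave 2 calls among the 41 and 2105 over all genes. The mean of all probe sets moved the intermediate minus ventral median of the S phase genes to -0.52 and that of the mitotic genes to -0.55, and the dorsal minus ventral median of the mitotic genes to -0.61. Probe sets without the suffix x_at or s_at, an alternative added after seeing the data, gave -0.56 for the S phase genes in intermediate minus ventral; the cause of these shifts was not tested. Signals next to the floor, as for Foxm1, E2f1, Tk1 and Plk1, limit what these arrays can show.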
